A study of Homo sapiens with 8 samples.

Results

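Gene expression in SAS cells transfected with miR-210-3p was compared with that in SAS cells transfected with miR-874-3p, array against array and without dividing either group by the negative control. SAS cells are an established line that came from a human squamous cell carcinoma of the tongue. The labels name the cells SAS, while the study's methods describe SAS/GFP cells, which carry a GFP vector and which all groups then share. One group received 25 nM of a miR-210-3p mimic and the other 25 nM of a miR-874-3p mimic, and RNA was taken after 48 h per the labels or 24 h per the study's methods. Each group held 2 arrays, so 4 of the 8 arrays of the series were compared. Of the other 4, 2 were of cells given a negative control RNA (NC) at the same dose and 2 of cells given miR-629-3p. The NC arrays are used as the background level of a gene. All 4 are used for the spread and for the position on the slide. The cells are 1 line treated with synthetic RNA above its own level, and the 2 arrays of a group are not stated to be separate cultures, so p-values measure only the spread between these samples, which may be technical.

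MicroRNAs (miRNAs) are short RNAs that guide Argonaute proteins to messenger RNAs, mostly by pairing of bases 2 to 8 of the miRNA, the seed, with a matching stretch in the messenger, which is then less stable and less translated. miR-210-3p is induced by hypoxia-inducible factors and is best known for lowering ISCU, a scaffold on which iron-sulfur clusters are assembled for mitochondrial respiration. miR-874-3p has been described as a suppressor of growth in several carcinomas, with reported targets among genes of the cell cycle and signalling. The mature sequences are shown because the comparison turns on them. They are those of RefSeq on GRCh38.p14, from the minus strand of chromosome 11 (chr11:568112-568133) for miR-210-3p and from the minus strand of chromosome 5 (chr5:137647582-137647603) for miR-874-3p, written 5′ to 3′ with the seed in capitals.
miR-210-3p: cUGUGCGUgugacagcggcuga
miR-874-3p: cUGCCCUGgcccgagggaccga
The seeds differ, so a messenger site for one is not a site for the other.

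RNA was measured in 1 colour on Agilent arrays that lay on 1 slide. Levels are given as log2 of the background-subtracted signal minus the array's 75th percentile, so 0 is the 75th percentile of the probes on that array. Between 25111 and 27721 of 58201 gene probes were well above background on the 4 arrays, and how precise a value is depends on there being only 2 arrays a group. A gene was tested if the 2 arrays of either group both held its brightest probe well above background, which left 20118 of 43395 gene names. The 2 miR-210-3p arrays differed by at least 2-fold in 267 of these genes and the 2 miR-874-3p arrays in 694. The 12 squamous markers were well above background on every array of both groups and of NC, with a summed level of 499 to 502 with miR-210-3p, 645 to 737 with miR-874-3p and 705 to 747 with NC on the linear scale. Of 8 fibroblast markers 3 or 4 were detected on an array of the 2 groups, with summed levels of 1.41 to 2.95, and COL1A2, COL3A1, DCN and LUM were not detected in either group. Of 6 endothelial markers 2 or 3 were detected, with PECAM1, TEK and CLDN5 not detected in either group, and summed levels of 1.38 to 1.82. Leukocyte markers gave 2 or 3 detected of the 6 whose probes were on the array, with HLA-DRA and CD2 among those not detected in either group, and summed levels of 2.68 to 3.88.

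Some genes differed in level between the 2 groups of arrays, which also lay in different slide rows. With miR-210-3p, 241 genes were called higher and 268 lower than with miR-874-3p, a call being an adjusted p under 0.05 and a change of at least 2-fold. These are 1.2% and 1.33% of the genes tested. Of the called genes 144 and 155 were measured on all 4 arrays. The counts also include 79 higher and 101 lower genes that were well above background only in the group where they were high. For these the detection filter fixed the direction, so they are a description and not a test. Without the 2-fold limit 1944 genes (9.66%) were higher and 767 (3.81%) lower at that adjusted p. At an unadjusted p under 0.05 and 2-fold, the threshold of the study's methods, 357 genes (1.77%) were higher and 390 (1.94%) lower. The adjusted p is that of limma after a Benjamini-Hochberg correction across the genes tested, and differences are miR-210-3p minus miR-874-3p on the log2 scale with their standard error (SE). All 509 called genes had groups that did not overlap, as did 60.4% of the genes tested. The median difference over all genes was 0.09, with quartiles of -0.09 and 0.29. After centring each array on its median, which took the median difference to 0.01, the genes past the adjusted p without the 2-fold limit were 1153 higher and 957 lower, so the excess of small increases depends on the scaling. Of the called genes 47.3% were higher, and 37.1% were with another background correction (normexp). Leaving out any of the 4 arrays kept the direction of all 72 genes that passed and are named by rule, but fewer of them then passed. Such a fit leaves a group of 1 array and fewer degrees of freedom. It therefore cannot tell whether a call leans on a single array.

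**Figure D1:**
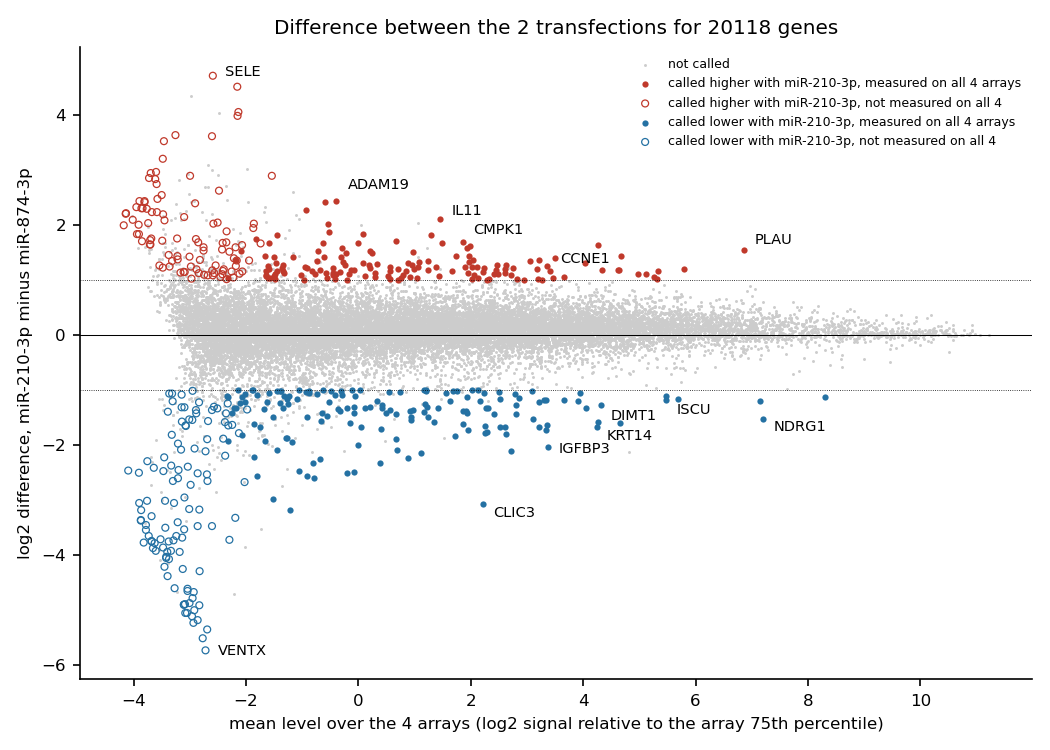
Log2 difference between miR-210-3p and miR-874-3p (y axis) against the mean level over the 4 arrays (x axis, log2 signal relative to the array's 75th percentile) for the 20118 genes tested. Red and blue mark the 241 genes called higher and the 268 called lower with miR-210-3p, open circles those not well above background on all 4 arrays, and dotted lines a 2-fold change. The open circles lie at the low levels on the left, where a fitted difference is not a measured fold.

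The comparison cannot be told apart from the position on the slide, because both miR-210-3p arrays and both miR-629-3p arrays lay in slide row 1 and both miR-874-3p and both NC arrays in row 2. All 4 arrays of row 1 lay above all 4 of row 2 in 102 of the 241 genes called higher (42.3%, against 11.8% of all genes tested), and below them in 122 of the 268 called lower (45.5%, against 3.54%). In the other called genes the miR-629-3p or NC arrays did not follow their row. Every called gene already had both miR-210-3p arrays apart from both miR-874-3p arrays. Part of the row condition was thus met by selection, so the excess over all genes is not a test of the slide row. The NC mean was nearer to the miR-874-3p mean in 191 of the genes called higher and nearer to the miR-210-3p mean in 50. For the genes called lower the numbers were 130 and 138. These counts, like those of the slide rows, include the 79 higher and 101 lower genes whose direction the detection filter fixed. They were not split by detection and are a description. Both groups are set against the same NC arrays wherever NC is named here.

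Probe sequences carry the sense strand of the messenger, so a match to a seed can be read in them. The site searched for was the reverse complement of the seed, ACGCACA for miR-210-3p and CAGGGCA for miR-874-3p. ACGCACA was present in the probes of 28 genes tested (0.139% of these, and 0.131% of all gene probes on the array). CAGGGCA was present in those of 81 (0.403%, and 0.387% of all gene probes), and no tested probe held both. The median difference was -0.12 over the 28 genes and 0.15 over the 81, beside 0.09 over all genes. Of the genes with the miR-210-3p site 4 were lower with miR-210-3p at the adjusted p (14.3%) and 0 higher, where limma gave 3.81% and 9.66% over all genes. Of those with the miR-874-3p site 11 were higher with miR-210-3p (13.6%) and 2 lower (2.47%). On the opposite strand, which does not pair with the miRNA in these messengers, the same letters gave 32 genes with a median of 0.11 (3 higher, 0 lower) for miR-210-3p and 156 genes with a median of 0.05 (13 higher, 6 lower) for miR-874-3p. These are descriptions of short windows of each messenger, whose exon and UTR position was not determined here.

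Of the 4 genes lower with miR-210-3p that held its site, 3 are shown with the site in capitals, 5′ to 3′ on the messenger strand and with hg19 positions from the array's annotation. DIMT1 (chr5:61684570-61684598, minus strand) codes for a methyltransferase of the small ribosomal subunit RNA, WLS (chr1:68564226-68564254, minus strand) for the carrier that brings Wnt proteins to the cell surface, and INF2 (chr14:105171088-105171106, plus strand) for a formin that assembles actin.
DIMT1: gagccgcagagACGCACAactttacactt
WLS: tgtacttgtatACGCACAcaaatacactc
INF2: atgtggcaaacACGCACAt
DIMT1 stood at 3.61 and 3.74 with miR-210-3p, at 5.11 and 4.79 with miR-874-3p and at 4.81 and 4.89 with NC. WLS stood at 0.66 and 0.74, 1.72 and 1.7, and 1.77 and 1.9 in the same order. In both genes the miR-210-3p arrays lay below all the others named and the miR-874-3p arrays near NC. The differences were -1.28 (SE 0.12, adjusted p = 0.00566) for DIMT1 and -1.01 (SE 0.08, adjusted p = 0.00337) for WLS. INF2 stood at 4.9 and 4.79, 5.45 and 5.42, and 5.19 and 5.08 in the same order, so NC lay between the 2 transfections. INF2 differed by -0.6 (SE 0.08, adjusted p = 0.0127).

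Among the 11 genes with the miR-874-3p site that were higher with miR-210-3p, the sites of the 3 called at 2-fold and of SOCS3 are shown in the same way. SOCS3, like the genes with the miR-210-3p site, was chosen after its values were seen. They are ADAM19 (chr5:156904481-156904509, minus strand), a membrane-bound metalloprotease, ACTR10 (chr14:58702255-58702283, plus strand), a dynactin subunit, NCR3LG1 (chr11:17398691-17398719, plus strand), a ligand of natural killer cell receptors, and SOCS3 (chr17:76353127-76353151, minus strand), an inhibitor of cytokine signalling.
ADAM19: tgtctgggatcCAGGGCAatgtgaatttt
ACTR10: ttatatcttctCAGGGCAgaggttcttga
NCR3LG1: gagatattggcCAGGGCAtatcgtgtccc
SOCS3: attgggctggaCAGGGCAgttgtgt
ADAM19 stood at 0.9 and 0.72 with miR-210-3p, at -1.3 and -1.94 with miR-874-3p and at -0.63 and -0.54 with NC. ACTR10 stood at -0.24 and -0.21, -1.41 and -1.26, and -0.4 and -0.36. SOCS3 stood at 2.73 and 2.62, 1.87 and 1.94, and 2.53 and 2.58. In these 3 genes the miR-874-3p arrays lay below those of miR-210-3p and of NC. For NCR3LG1 they did not, since -2.02 and -1.98 with miR-874-3p lay beside -1.92 and -2.06 with NC and -0.81 and -1.15 with miR-210-3p. The differences were 2.43 (SE 0.22, adjusted p = 0.0049) for ADAM19, 1.11 (SE 0.09, adjusted p = 0.00346) for ACTR10, 1.02 (SE 0.14, adjusted p = 0.0142) for NCR3LG1 and 0.77 (SE 0.08, adjusted p = 0.00616) for SOCS3.

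The members of this and the other gene lists were chosen with earlier results of these data known. Their shares beside those of all genes are therefore descriptions. Of 39 genes listed as reported targets of miR-210-3p, 36 were tested. With miR-210-3p 8 of them were lower and 2 higher than with miR-874-3p at the adjusted p, 3 of the 8 by 2-fold or more, and 26 did not pass. The shares were 22.2% lower and 5.56% higher, beside 3.81% and 9.66% of all genes. The median difference was -0.1, beside 0.09 over all genes. The iron-sulfur scaffold gene ISCU stood at 4.86 and 4.91 with miR-210-3p, at 6.12 and 6.0 with miR-874-3p and at 6.04 and 5.99 with NC. It was thus low on the miR-210-3p arrays, with no overlap, and its difference was -1.18 (SE 0.07, adjusted p = 0.0027), a 2.26-fold decrease. FGFRL1, a fibroblast growth factor receptor that lacks the kinase domain, stood at -0.78 and -0.96, 0.41 and 0.54, and 0.79 and 0.39, a difference of -1.34 (SE 0.24, adjusted p = 0.0236). GPD1L, a glycerol-3-phosphate dehydrogenase linked to the stability of hypoxia-inducible factor, stood at 1.47 and 1.51, 2.32 and 2.27, and 2.43 and 2.45, a difference of -0.8 (SE 0.07, adjusted p = 0.00459). For these 3 genes and for DIMT1, also on the list, the miR-874-3p arrays lay near the NC arrays while the miR-210-3p arrays lay below both. ISCU and GPD1L passed whichever of the 4 arrays was left out, DIMT1 did not pass without miR-210-3p replicate 1, and FGFRL1 passed only without miR-874-3p replicate 1.

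Smaller decreases passed the test in 4 further reported targets. They were MID1IP1, a regulator of fatty acid synthesis (-0.54, SE 0.07, adjusted p = 0.0111), the mitophagy receptor gene BNIP3 (-0.45, SE 0.07, adjusted p = 0.0169), the neuronal pentraxin gene NPTX1 (-0.42, SE 0.09, adjusted p = 0.0367) and SDHD, a membrane subunit of succinate dehydrogenase (-0.41, SE 0.07, adjusted p = 0.0212). The used probe of SDHD was the brightest of 3, and the other probes gave -0.17 and -0.25 with adjusted p-values of 0.162 and 0.169. Higher were the microtubule-destabilizing STMN1 (0.37, SE 0.07, adjusted p = 0.0299) and the cell cycle transcription factor E2F3 (0.39, SE 0.09, adjusted p = 0.0383), and with each array centred on its median the list had 9 lower and 0 higher. EFNA3, an ephrin ligand named in work on miR-210 and blood vessels, stood at -3.11 and -2.93 with miR-210-3p and at -1.94 and -1.83 with miR-874-3p, a difference of -1.13 that did not pass (SE 0.31, adjusted p = 0.0664). The other members that did not pass lay between -0.79 for TNPO1 and 0.34 for CHD9. A second, dimmer probe of TNPO1 gave -0.56 and did pass (adjusted p = 0.0393). Leaving out each of the 4 arrays in turn gave 2 to 7 lower and 0 to 2 higher.

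Most of the 12 tested of 14 reported targets of miR-874-3p lay on the other side, with 9 differences above 0 and 3 below. At the adjusted p 8 were higher with miR-210-3p, that is lower with miR-874-3p, 0 were lower, and 4 did not pass. The share higher was 66.7%, beside 9.66% of all genes, and the median was 0.47, beside 0.09. CCNE1, the cyclin that drives entry into DNA replication, stood at 4.0 and 3.99 with miR-210-3p, at 2.83 and 2.83 with miR-874-3p and at 3.75 and 3.81 with NC. The miR-874-3p arrays were low, and the difference was 1.16 (SE 0.07, adjusted p = 0.00269), a 2.24-fold change. PPP1CA, a catalytic subunit of protein phosphatase 1, stood at 4.66 and 4.59, 3.72 and 3.98, and 4.7 and 4.64, a difference of 0.77 (SE 0.11, adjusted p = 0.0142). In CCNE1 and PPP1CA miR-210-3p and NC lay close together and apart from miR-874-3p.

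ATG16L1, which helps to build autophagosomes, was higher with miR-210-3p by 0.66 (SE 0.07, adjusted p = 0.00692), at 2.9 and 2.98 against 2.28 and 2.29, with NC at 2.94 and 2.96. Its other probe, much dimmer, gave 0.07 (adjusted p = 0.832). STAT3, a transcription factor of cytokine signalling, differed by 0.66 (SE 0.08, adjusted p = 0.00917), CDK9, the kinase that releases paused polymerase, by 0.54 (SE 0.07, adjusted p = 0.0133), and the histone deacetylase gene HDAC1 by 0.29 (SE 0.07, adjusted p = 0.0488). E2F3, on both lists, also passed. HDAC1 did not pass once any of the 4 arrays was left out. AQP3, the water and glycerol channel, stood at 1.27 and 1.19 with miR-210-3p and at 1.0 and 2.35 with miR-874-3p, so its arrays overlapped (-0.45, SE 0.5, adjusted p = 0.593). MMP2, MMP9 and CASP8 gave -0.33, -0.3 and 0.29 and did not pass. Without single arrays the list gave 1 to 7 higher and 0 or 1 lower, the fewest without a miR-210-3p array, and 6 higher with each array centred on its median.

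**Figure D2:**
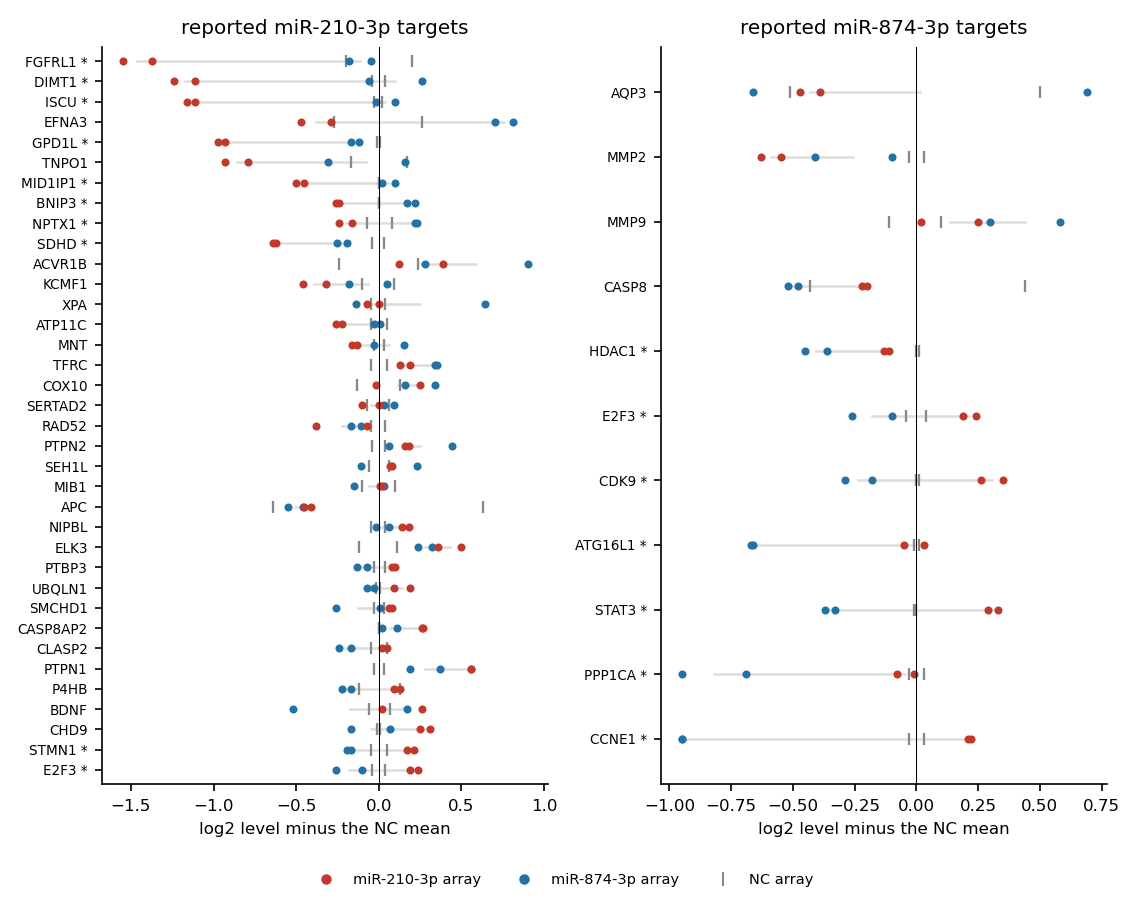
Level on each array minus the NC mean (x axis, log2) for the 36 tested reported targets of miR-210-3p (left) and 11 of the 12 of miR-874-3p (right), ordered by their difference. Red and blue points are the 2 arrays of each transfection, grey bars the 2 NC arrays, grey lines join the group means and an asterisk marks an adjusted p under 0.05. At the top left the red points of FGFRL1, DIMT1, ISCU and GPD1L stand apart to the left, and at the bottom right the blue points of CCNE1, PPP1CA and ATG16L1 do.

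The 10 protein-coding genes with the largest decreases among those measured on all 4 arrays were lower with miR-210-3p by 4.72- to 8.47-fold. CLIC3, a chloride channel family protein involved in integrin recycling, stood at 0.55 and 0.8 with miR-210-3p, at 3.41 and 4.1 with miR-874-3p and at 2.11 and 1.93 with NC, a difference of -3.08 (SE 0.24, adjusted p = 0.00348). CA9, the hypoxia-induced carbonic anhydrase, stood at -2.46 and -1.72, 0.54 and 0.5, and -0.51 and -0.34, a difference of -2.61 (SE 0.56, adjusted p = 0.0361). For both genes NC lay between the 2 transfections. CCN5, a secreted matricellular protein, stood at -0.48 and 0.0, 1.85 and 2.15, and 1.62 and 1.71, a difference of -2.24 (SE 0.18, adjusted p = 0.00381). NUPR1, a stress-induced chromatin protein, stood at -1.56 and -1.09, 0.93 and 1.39, and 0.83 and 0.21, a difference of -2.49 (SE 0.27, adjusted p = 0.00788). NC lay nearer to miR-874-3p in these 2 genes, and in 6 of the 10.

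The 2 miR-874-3p arrays differed widely in several of the other 6. The potassium channel gene KCNK2 stood at -1.02 and 0.96 with miR-874-3p (-3.18 and -2.84 with miR-210-3p, adjusted p = 0.0323), and LOXL4, a collagen cross-linking oxidase, at 0.25 and 1.85 (-1.12 and -1.8, adjusted p = 0.0342). GDNF, a neurotrophic factor, stood at -1.29 and 0.26 against -3.07 and -3.11 and gave -2.57 (SE 0.49, adjusted p = 0.0275), but its second, dimmer probe gave 1.23 in the opposite direction (adjusted p = 0.0144), so GDNF has no settled direction. AKR1B10, an aldo-keto reductase, gave -2.48 (SE 0.36, adjusted p = 0.0153), with a second probe at -1.47 (adjusted p = 0.0507). CBFA2T3, a transcriptional corepressor, gave -2.34 (SE 0.41, adjusted p = 0.0231). TREM1, a receptor of the immunoglobulin family, gave -2.26 (SE 0.36, adjusted p = 0.0183), while its dimmer probe gave -0.26 (adjusted p = 0.549). In each of these genes both miR-210-3p arrays, by the probe used, lay below both miR-874-3p arrays. Of the 10 genes, CLIC3 and CCN5 passed whichever array was left out. CA9 passed in none of the 4 cases, with differences of -2.24 and -2.98 without miR-210-3p replicate 1 and 2 and -2.59 and -2.63 without miR-874-3p replicate 1 and 2. NUPR1 did not pass without miR-210-3p replicate 1, and the other 6 did not pass without either miR-210-3p array.

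The 10 largest increases were smaller, from 3.21- to 5.39-fold, and ADAM19 headed them. The scavenger receptor gene MARCO stood at 0.59 and 0.63 with miR-210-3p, at -1.96 and -1.64 with miR-874-3p and at -1.67 and -1.63 with NC, a difference of 2.41 (SE 0.18, adjusted p = 0.0034). TENT5C, a poly(A) polymerase that stabilizes messengers, stood at 1.06 and 0.94, -0.87 and -0.8, and -0.6 and -0.68, a difference of 1.83 (SE 0.08, adjusted p = 0.00153). Both were high on the miR-210-3p arrays, with miR-874-3p near NC. IL11, a cytokine of the interleukin-6 family, stood at 2.65 and 2.35, 0.46 and 0.32, and -0.42 and -0.39, a difference of 2.11 (SE 0.14, adjusted p = 0.00303). CMPK1, the kinase that phosphorylates UMP and CMP, showed the other pattern, at 2.47 and 2.93, 0.9 and 1.14, and 2.3 and 2.28, with miR-874-3p low and miR-210-3p beside NC (1.68, SE 0.16, adjusted p = 0.00616). Its second probe gave 1.15 (adjusted p = 0.00396).

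The other 5 of these genes were the transmembrane collagen gene COL13A1 (2.01, SE 0.16, adjusted p = 0.004), the tight junction gene CLDN3 (1.86, SE 0.29, adjusted p = 0.018), the coagulation transglutaminase gene F13A1 (1.82, SE 0.42, adjusted p = 0.0427), the elastic fibre gene FBLN5 (1.74, SE 0.18, adjusted p = 0.00695) and TMTC4, a mannosyltransferase of the endoplasmic reticulum (1.71, SE 0.12, adjusted p = 0.00303). NC lay nearer to miR-874-3p in 8 of the 10, the exceptions being CMPK1 and TMTC4, which stood at 1.52 and 1.53, -0.33 and -0.05, and 0.67 and 0.87. F13A1 did not pass once any of the 4 arrays was left out, CLDN3 did not pass without either miR-210-3p array and FBLN5 not without miR-210-3p replicate 1. Of the 20 genes with the largest changes, 6 had the 4 arrays of slide row 1 apart from the 4 of row 2.

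**Figure D3:**
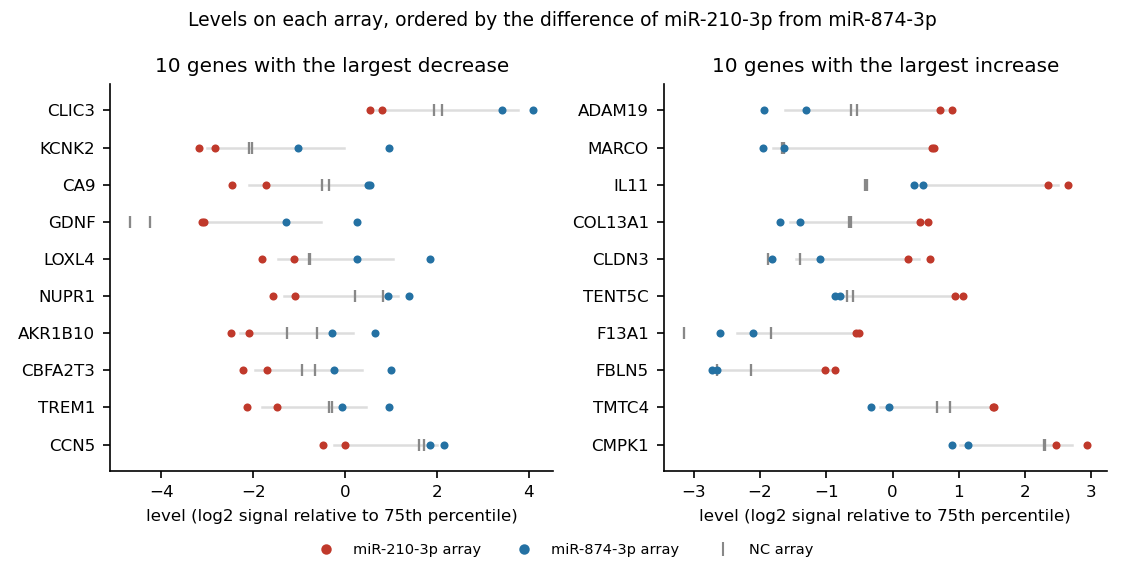
Level on each array (x axis, log2 signal relative to the 75th percentile) for the 10 protein-coding genes with the largest decrease (left) and the 10 with the largest increase (right) with miR-210-3p relative to miR-874-3p. Red and blue points are the 2 arrays of each transfection, grey bars the 2 NC arrays, and grey lines join the group means. No red point overlaps a blue one within a gene, and the blue points of KCNK2, GDNF and LOXL4 lie far apart.

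Some genes were well above background in 1 transfection and not in the other, so their change has only a bound. There were 635 genes measured on both miR-210-3p arrays and on neither miR-874-3p array, and 170 with the reverse. The dimmest detected signal differed, at -3.4 and -3.44 on the miR-210-3p arrays and at -3.25 and -2.9 on the miR-874-3p arrays. What this limit adds to the 2 counts was not tested. Each of these genes entered the test through the group where it was high, so the filter fixed its direction, and the values are a description. The 5 largest bounds for miR-210-3p belonged to XYLB, a xylulokinase (at least 9.04-fold, -0.29 and 0.49 with miR-210-3p, adjusted p = 0.0103), the thrombopoietin gene THPO (at least 7.83-fold, -0.32 and 0.1, adjusted p = 0.00788), the keratinocyte interferon gene IFNK (at least 7.57-fold, -0.08 and -0.23, adjusted p = 0.0147), the E-selectin gene SELE (at least 7.17-fold, 0.34 and -0.81, adjusted p = 0.0034) and the calcitonin receptor gene CALCR (at least 3.02-fold, -1.47 and -1.5, adjusted p = 0.00751). None of these 5 was well above background on an NC array.

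For miR-874-3p the largest bounds were those of the homeobox gene VENTX (at least 11.9-fold, -0.51 and 0.82 with miR-874-3p, adjusted p = 0.00303), the kinase gene PSKH2 (at least 10.6-fold, 0.69 and -0.71, adjusted p = 0.0373), the myosin gene MYO3A (at least 7.43-fold, -0.23 and -0.82, adjusted p = 0.000946), the immunoglobulin-like receptor gene ILDR2 (at least 7.3-fold, 0.58 and -1.69, adjusted p = 0.0137) and DUSP16, a phosphatase of stress-activated kinases (at least 6.7-fold, -0.97 and -0.38, adjusted p = 0.00843). PSKH2 was well above background on 1 of the 2 NC arrays and the other 4 on neither, and it did not pass once any of the 4 arrays was left out. The fold between the miR-874-3p arrays themselves was largest in ILDR2 among these 5.

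Many genes of the cell cycle were higher with miR-210-3p than with miR-874-3p. All 74 listed genes were tested, 31 were higher (41.9%, beside 9.66% of all genes), 0 were lower and 43 did not pass, with a median of 0.37. The differences were small, with CCNE1 the 1 member called at 2-fold. The proliferation marker MKI67 stood at 4.04 and 4.04 with miR-210-3p, at 3.43 and 3.38 with miR-874-3p and at 3.62 and 3.66 with NC, a difference of 0.63 (SE 0.07, adjusted p = 0.00759). CDK6, the kinase that acts with D-type cyclins, stood at 5.31 and 5.27, 4.61 and 4.38, and 4.61 and 4.58, a difference of 0.8 (SE 0.09, adjusted p = 0.00928). E2F1, which activates replication genes, stood at 3.14 and 3.03, 2.49 and 2.59, and 2.66 and 2.6, a difference of 0.54 (SE 0.08, adjusted p = 0.0161). The miR-210-3p arrays were the highest of the 3 groups in these genes. The 31 also held CDKN2C and CDKN2D, inhibitors of the kinases of D-type cyclins, and RB1, the retinoblastoma protein that restrains E2F factors.

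Against the shared NC arrays, the median of the list was 0.16 for miR-210-3p and -0.21 for miR-874-3p, beside 0.09 and -0.005 over all genes, and 59 members lay above the NC mean with miR-210-3p while 64 lay below it with miR-874-3p, beside 12677 and 10060 of all 20118 genes. The spindle gene CENPF stood at 6.88 and 6.86 with miR-210-3p and at 6.23 and 6.21 with miR-874-3p (0.65, SE 0.07, adjusted p = 0.00846). CCNB1, the mitotic cyclin, gave 0.23 (adjusted p = 0.114), and CDKN1A, the p21 inhibitor, 0.53 (adjusted p = 0.14), and neither passed. In 7 of the 31 genes that passed, the 4 arrays of slide row 1 lay apart from the 4 of row 2, beside 41.4% of all genes that passed. With each array centred on its median 18 members were higher and the median was 0.29. Without 1 array 1 to 39 were higher and the median stayed within 0.32 to 0.41, and the count was 1 without either miR-210-3p array.

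Several keratins and genes of the cornified layer were lower with miR-210-3p. Of 37 tested of 52 listed, 11 were lower (29.7%, beside 3.81% of all genes), 6 of them by 2-fold, 1 was higher and 25 did not pass, with a median of -0.43. KRT14, a keratin of basal keratinocytes, stood at 3.37 and 3.43 with miR-210-3p, at 4.89 and 5.28 with miR-874-3p and at 4.39 and 4.56 with NC, a difference of -1.68 (SE 0.14, adjusted p = 0.00409), and a second probe gave -1.75. Cross-hybridization between KRT14, KRT17 and other similar keratins was not tested. KRT17 stood at 3.45 and 3.5, 4.91 and 5.21, and 4.36 and 4.54 (-1.58, SE 0.12, adjusted p = 0.00346). S100A9, a subunit of calprotectin, stood at 2.27 and 2.47, 3.8 and 4.28, and 3.41 and 3.52 (-1.67, SE 0.17, adjusted p = 0.00724). The miR-210-3p arrays were the lowest in each of the 3 genes, and the miR-874-3p arrays the highest.

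LCN2, a siderophore-binding lipocalin, was not well above background on either miR-210-3p array and was lower by at least 2.06-fold (adjusted p = 0.0155). It entered the test through the miR-874-3p arrays, which fixed its direction, and 10 members measured on all 4 arrays were lower. The basal keratin KRT5 gave -0.91 (SE 0.19, adjusted p = 0.0327), at 4.66 and 4.65, 5.27 and 5.87, with NC at 5.87 and 5.87. KRT80, an epithelial keratin, was the 1 member higher (0.91, SE 0.12, adjusted p = 0.0128). The squamous regulator TP63 gave -0.32 (adjusted p = 0.519) and involucrin (IVL) -0.36 (adjusted p = 0.348), and neither passed, with overlapping arrays for IVL. In 8 of the 12 genes that passed the slide rows lay apart, beside 41.4% of all genes that passed. The squamous markers, which share members with this list, had 4 of 12 lower with miR-210-3p (KRT14, KRT17, KRT5 and SFN), 0 higher and a median of -0.35. The share lower was 33.3%, beside 3.81% of all genes lower and 9.66% higher. Without 1 array 3 to 12 members of the list of keratins and cornification genes were lower and 0 or 1 higher, with a median between -0.59 and -0.43.

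**Figure D4:**
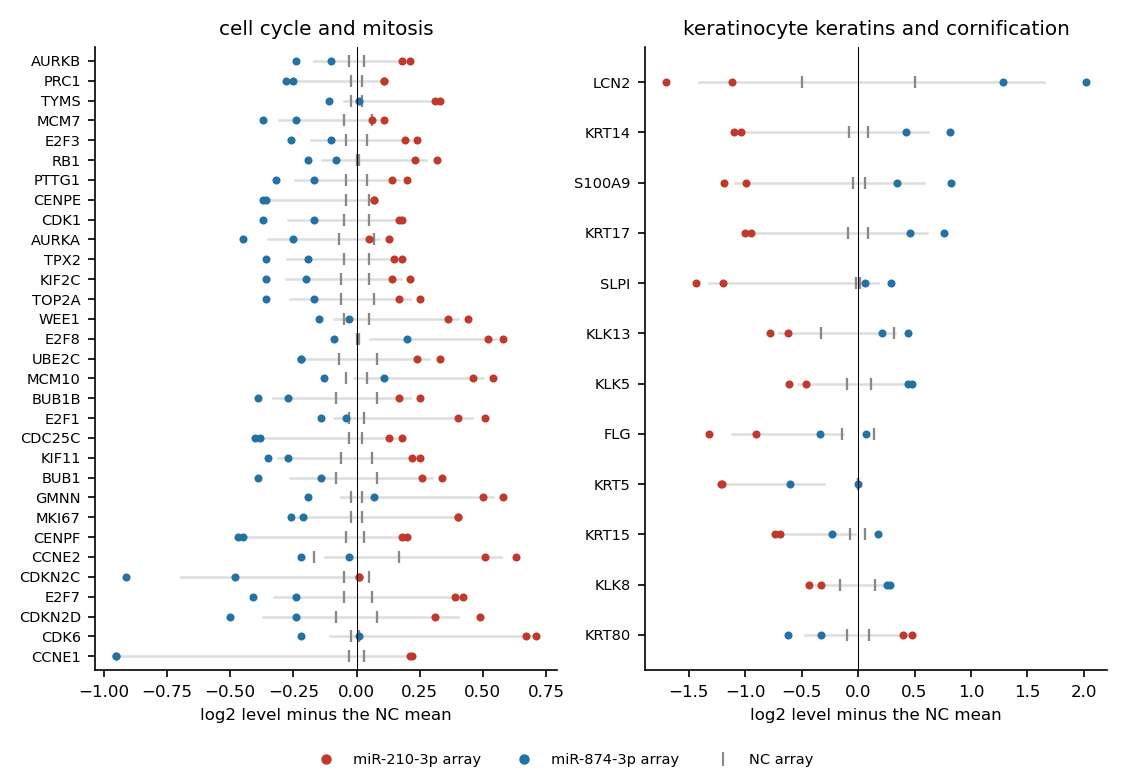
Level on each array minus the NC mean (x axis, log2) for the 31 cell cycle genes (left) and the 12 keratin and cornification genes (right) that passed the adjusted p. Red and blue points are the 2 arrays of each transfection, grey bars the 2 NC arrays, and grey lines join the group means. In the left panel the red points lie to the right of the blue ones in every gene shown, and in the right panel to the left in all but KRT80. LCN2 was not well above background with miR-210-3p or NC.

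Genes of the hypoxia response and of glycolysis were in part lower with miR-210-3p. Of 46 tested of 47 listed, 11 were lower (23.9%, beside 3.81% of all genes), 3 of them by 2-fold, 2 were higher (4.35%, beside 9.66%) and 33 did not pass, with a median of -0.09. Beside CA9, the stress-responsive NDRG1 stood at 6.43 and 6.43 with miR-210-3p, at 7.79 and 8.13 with miR-874-3p and at 7.47 and 7.37 with NC (-1.53, SE 0.15, adjusted p = 0.0057). DDIT4, an inhibitor of mTOR signalling, stood at 5.0 and 4.85, 5.92 and 6.16, and 6.06 and 5.84 (-1.12, SE 0.17, adjusted p = 0.0173). The pyruvate dehydrogenase kinase PDK1 gave -0.57 (SE 0.12, adjusted p = 0.0344). The miR-210-3p arrays were below both miR-874-3p and NC arrays in these genes. The angiogenic factor VEGFA (0.32, SE 0.08, adjusted p = 0.0494) and ANGPTL4, an inhibitor of lipoprotein lipase (0.93, SE 0.15, adjusted p = 0.0192), were higher. HIF1A (0.08, adjusted p = 0.534), the glucose transporter SLC2A1 (0.16, adjusted p = 0.268) and lactate dehydrogenase A (LDHA, -0.06, adjusted p = 0.662) did not pass.

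In 12 of the 13 hypoxia genes that passed, the miR-629-3p arrays lay with those of miR-210-3p and the NC arrays with those of miR-874-3p, as the slide rows do, beside 41.4% of all genes that passed. Of the 80 tested genes of the respiratory chain and of iron-sulfur assembly, 3 were lower (3.75%, beside 3.81% of all genes) and 5 higher (6.25%, beside 9.66%), with a median of 0.11. ISCU was the 1 member called at 2-fold. IBA57, a late factor of iron-sulfur assembly, gave -0.45 (SE 0.1, adjusted p = 0.0415), and ISCA2, another assembly factor, 0.46 (SE 0.07, adjusted p = 0.0171). The succinate dehydrogenase subunit SDHB (0.02, adjusted p = 0.902) and the complex I subunit NDUFS1 (0.17, adjusted p = 0.147) did not pass. Without 1 array the hypoxia list gave 2 to 11 lower and 0 to 3 higher, with 2 lower and 0 higher without either miR-210-3p array.

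Interferon response genes were lower with miR-210-3p in 8 of 46 tested (17.4%, beside 3.81% of all genes), 4 of them called at 2-fold, higher in 0 (9.66% of all genes), and 38 did not pass, with a median of -0.1. IFITM1, an antiviral membrane protein, stood at 0.98 and 1.13 with miR-210-3p, at 2.56 and 2.78 with miR-874-3p and at 2.44 and 2.56 with NC (-1.62, SE 0.1, adjusted p = 0.00273), and a second probe gave -1.63. OASL, an oligoadenylate synthetase-like protein, stood at -1.08 and -0.98, -0.07 and 0.81, and 0.89 and 0.3 (-1.39, SE 0.33, adjusted p = 0.0451). The ubiquitin ligase gene TRIM22 was not well above background with miR-210-3p and was lower by at least 1.64-fold (adjusted p = 0.0114). It entered the test through the miR-874-3p arrays, so its direction was fixed by the filter, and 7 members measured on all 4 arrays were lower. BST2, which tethers budding virus particles, was at -2.5 and -2.77 against -1.75 and -1.27 (-1.13, SE 0.18, adjusted p = 0.0176). Against NC the list's median was -0.37 for miR-210-3p and -0.31 for miR-874-3p, and 44 of 46 members lay below the NC mean in each, beside 7129 of all 20118 genes for miR-210-3p and 10060 for miR-874-3p. Both are set against the same NC arrays. IFIT1 (0.04, adjusted p = 0.88) and ISG15 (-0.13, adjusted p = 0.513) did not pass between the 2 transfections. Without 1 array 1 to 7 members were lower and 0 or 1 higher, with 1 lower without either miR-210-3p array.

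Epithelial and mesenchymal genes moved in both directions. Of 47 tested epithelial genes 7 were higher with miR-210-3p (14.9%) and 5 lower (10.6%), beside 9.66% of all genes higher and 3.81% lower, with a median of 0.01. Without 1 array 1 to 7 were higher and 0 to 8 lower, with 0 lower without either miR-210-3p array. The claudins went opposite ways, with CLDN3 higher as given above and CLDN1 lower (5.12 and 5.07, 5.82 and 6.71, -1.17, SE 0.28, adjusted p = 0.0489). The adhesion gene EPCAM was higher (0.44, SE 0.08, adjusted p = 0.0258), and E-cadherin (CDH1) did not pass (0.14, adjusted p = 0.472). Of 41 tested mesenchymal genes 9 were higher (22.0%) and 4 lower (9.76%), against the same background, with a median of 0.09. Without 1 array 2 to 9 were higher and 1 to 6 lower, with 2 and 1 without either miR-210-3p array. The intermediate filament gene VIM stood at 5.94 and 5.89 with miR-210-3p, at 5.09 and 4.41 with miR-874-3p and at 4.78 and 5.06 with NC (1.16, SE 0.22, adjusted p = 0.0282). IGFBP3, which binds insulin-like growth factors, stood at 2.27 and 2.44, 4.51 and 4.29, and 3.67 and 4.09 (-2.04, SE 0.17, adjusted p = 0.00408). The transcription factor gene SNAI2 was lower (-0.57, SE 0.07, adjusted p = 0.00917), N-cadherin (CDH2) stood at 0.48 (adjusted p = 0.0576), and COL1A1, also a fibroblast marker, at -1.64 and 0.51 against -2.76 and -2.85 (2.24, SE 0.63, adjusted p = 0.071), neither past the test. With each array centred on its median, the epithelial median was -0.07 and the mesenchymal median 0.01. Among the genes that passed, the slide rows lay apart in 5 epithelial and 8 mesenchymal genes, beside 41.4% of all genes that passed.

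Of 73 tested genes of cell migration and matrix remodelling, 11 were higher (15.1%) and 2 lower (2.74%), beside 9.66% of all genes higher and 3.81% lower, with a median of 0.14. Without miR-210-3p replicate 1 and 2 the counts were 2 and 4 higher and 0 lower, and the median lay between 0.08 and 0.16 without single arrays. PLAU, the urokinase that activates plasminogen, stood at 7.63 and 7.62 with miR-210-3p, at 6.16 and 6.02 with miR-874-3p and at 6.72 and 6.68 with NC (1.54, SE 0.08, adjusted p = 0.0018), and a second probe gave 1.86. The integrin subunit gene ITGB1 was higher by 0.95 (SE 0.08, adjusted p = 0.00459), at 1.77 and 1.89 against 0.88 and 0.88. ITGB8, another integrin subunit, was lower (-1.55, SE 0.37, adjusted p = 0.0478), at 0.22 and 0.1 against 1.17 and 2.25. The collagenase MMP1 (-0.61, adjusted p = 0.0882) and CD44 (0.05, adjusted p = 0.774), the hyaluronan receptor, did not pass.

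Some secreted factors of blood vessel growth and of inflammation passed the test, more of them higher than lower, as among all genes (9.66% higher and 3.81% lower). Of 32 angiogenesis factors tested 7 were higher (21.9%), 3 of them by 2-fold, and 2 lower (6.25%), with a median of 0.04 that was -0.04 with each array centred on its median. PGF, the placental growth factor, stood at 2.78 and 2.68 with miR-210-3p, at 1.55 and 1.44 with miR-874-3p and at 1.2 and 1.27 with NC (1.23, SE 0.08, adjusted p = 0.0027). The co-receptor gene NRP1 stood at 2.51 and 2.54, 1.53 and 1.25, and 1.56 and 1.56 (1.13, SE 0.12, adjusted p = 0.00719), and a second probe gave 0.92. Both were higher with miR-210-3p than in the other 2 groups. Of 34 tested cytokines, chemokines and receptors 8 were higher (23.5%) and 2 lower (5.88%), with a median of 0.11. Without either miR-210-3p array 1 gene of each list was higher, and without miR-874-3p replicate 1 the cytokine list had 14 higher and a median of 0.28. Beside IL11, the interleukin-6 receptor gene IL6R was higher (0.74 and 0.72, -0.26 and -0.89, 1.3, SE 0.24, adjusted p = 0.0268), as was the neutrophil chemokine CXCL2 (1.29 and 1.26, 0.46 and 0.01, 1.04, SE 0.22, adjusted p = 0.0357), whose dimmer probe gave 0.62 (adjusted p = 0.0779). ACKR3, a scavenging chemokine receptor, was lower (-0.06 and -0.05, 1.33 and 1.46, -1.45, SE 0.13, adjusted p = 0.00528). IL6 itself (-0.01, adjusted p = 0.972) and CXCL8 (0.63, adjusted p = 0.119) did not pass.

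The study screened these miRNAs for a part in cisplatin resistance, and few members of the lists that bear on it reached 2-fold. Of 38 apoptosis regulators 5 were higher with miR-210-3p (13.2%) and 0 lower, beside 9.66% of all genes higher and 3.81% lower, with a median of 0.14. BMF, which binds and blocks anti-apoptotic BCL2 proteins, was called at 2-fold (-0.24 and -0.26, -1.82 and -0.98, 1.15, SE 0.28, adjusted p = 0.0493), while its dimmer probe gave -0.41 (adjusted p = 0.66). With normexp, quantile normalization, median centring or outlier spots kept, 0 members of the list were called higher at 2-fold. With the authors' values or signals floored at the detection limit 1 was. The floor also gave 1 member called lower at 2-fold, as did a trend and detection required on all 4 arrays. BCL2L1 (0.47, adjusted p = 0.0509) and MCL1 (-0.23, adjusted p = 0.692), which block apoptosis, did not pass. TNFSF10 had the largest difference of the list, at -1.43, and did not pass either (adjusted p = 0.0541). Of 31 p53 targets 3 were higher and 3 lower (9.68% each, beside the same 9.66% and 3.81%), with a median of 0.03 that was -0.05 with each array centred on its median. Of 57 genes of platinum transport, efflux and DNA repair 9 were higher (15.8%, beside 9.66%), none by 2-fold, and 0 lower, with a median of 0.12. Without either miR-210-3p array 0 members of these 3 lists passed in either direction. The 9 higher platinum and repair genes included the nucleotide excision repair genes ERCC1 (0.45, SE 0.08, adjusted p = 0.0253) and ERCC4 (0.78, SE 0.17, adjusted p = 0.0387) and BRCA1 (0.5, SE 0.1, adjusted p = 0.0293). The drug efflux pump ABCC2 gave -0.43 (adjusted p = 0.053) and ABCC1 -0.24 (adjusted p = 0.215), neither past the test. With each array centred on its median, 2 apoptosis regulators were higher and 1 lower, and 5 platinum and repair genes were higher and 1 lower. Among the genes that passed, the slide rows lay apart in 5 apoptosis regulators, 5 p53 targets and 5 platinum and repair genes. The share was 41.4% of all genes that passed.

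**Figure D5:**
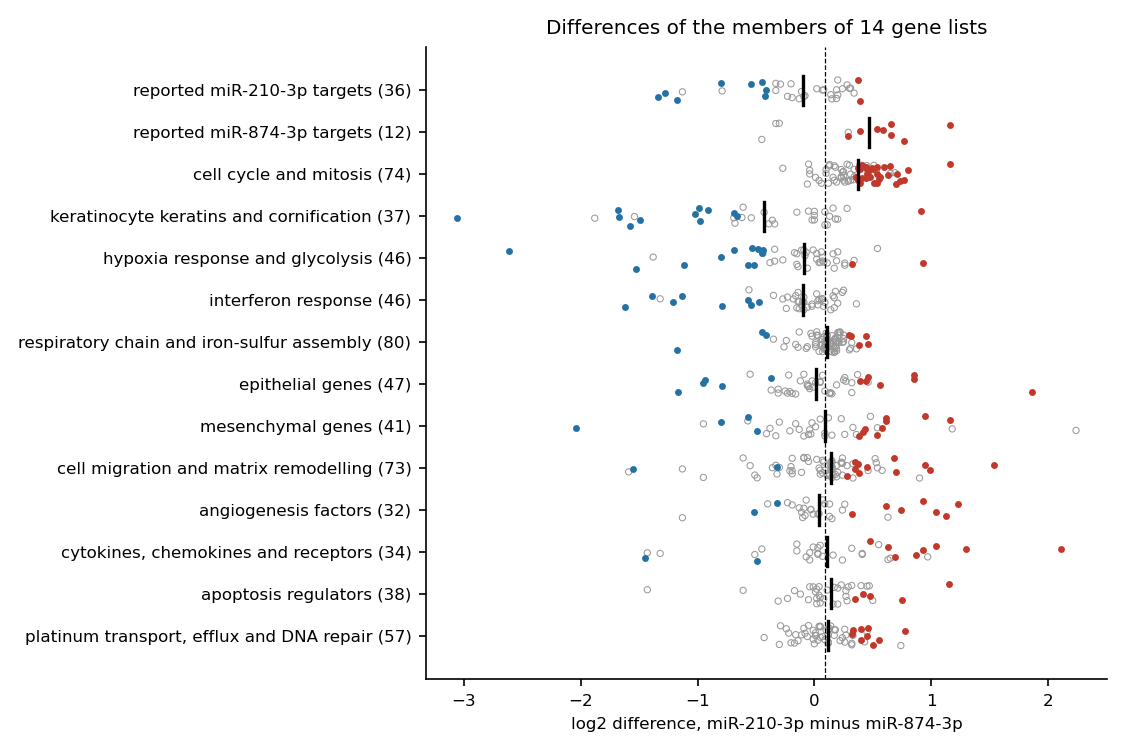
Log2 difference between miR-210-3p and miR-874-3p (x axis) for the tested members of 14 gene lists (number tested in parentheses), each point a gene, with vertical scatter added for legibility. Filled red and blue points passed the adjusted p, black bars are list medians, and the dashed line is the median of all genes, 0.09. The bars of the cell cycle genes (0.37) and of the reported miR-874-3p targets (0.47) lie to its right and that of keratins and cornification genes (-0.43) to its left.

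Metabolic and stress lists were mixed. Of 39 genes of cholesterol and fatty acid synthesis 6 were higher (15.4%) and 5 lower (12.8%), beside 9.66% of all genes higher and 3.81% lower, with a median of 0.0 that ran from -0.14 to 0.16 without single arrays. INSIG1, which holds back sterol synthesis, stood at 3.39 and 3.21 with miR-210-3p, at 4.31 and 4.71 with miR-874-3p and at 3.93 and 3.77 with NC (-1.21, SE 0.15, adjusted p = 0.0103). Of 43 genes of the unfolded protein and amino acid stress responses 8 were higher (18.6%) and 1 lower (2.33%), none by 2-fold, with a median of 0.23, but 1 was higher with each array centred on its median. Of 35 NRF2 and antioxidant genes 3 were lower (8.57%), AKR1B10 by 2-fold, and 0 higher. Without either miR-210-3p array 0 members of these 3 lists passed in either direction. In the miRNA machinery 1 of 19 genes passed, DICER1, the enzyme that cuts precursors to mature miRNAs. This share lower, 5.26%, lay near the 3.81% of all genes, and 0 passed in a fit of the 4 arrays alone. DICER1 stood at 3.12 and 3.22 with miR-210-3p, at 3.91 and 3.77 with miR-874-3p and at 3.43 and 3.52 with NC (-0.67, SE 0.08, adjusted p = 0.0103). In DICER1 the 4 arrays of slide row 1 lay apart from the 4 of row 2. AGO2, the slicing Argonaute protein, gave 0.29 (adjusted p = 0.0839).

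Called genes were not limited to protein-coding ones. Of the 509, 296 matched a protein-coding gene (2.28% of the 12988 tested), 49 a long non-coding gene (3.81% of 1286), 13 another type (2.0% of 650), and 151 had no match in the RefSeq table (2.91% of 5194). Among those without a protein-coding match that were measured on all 4 arrays, the largest increases were of lnc-SMC1A-2 (0.37 and 0.04, -1.8 and -2.32, 2.26, SE 0.24, adjusted p = 0.00754) and of SCARNA1, a small Cajal body RNA (2.19 and 2.2, 0.68 and 0.08, 1.82, SE 0.21, adjusted p = 0.00846). The largest decreases were of LOC102725086 (-2.7 and -2.93, 0.22 and 0.54, -3.19, SE 0.25, adjusted p = 0.00352) and lnc-SLC6A12-2 (-1.92 and -2.47, 0.1 and 0.64, -2.57, SE 0.25, adjusted p = 0.00591). LOC102725086 was high on the miR-874-3p arrays against -2.25 and -1.9 with NC.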

How the data were processed

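RNA of 8 SAS samples (2 each of miR-210-3p, miR-874-3p, miR-629-3p and NC) was hybridized, 100 ng per sample, in 1 colour to Agilent human expression arrays. The deposited files hold each spot's background-subtracted signal intensity from Agilent Feature Extraction 11.5.1.1, named in the submitters' processing notes. The deposited series table holds log2 values of the authors, which set against the scanner files were the log2 signal minus each array's 75th percentile, with an offset of 0.0058 to 0.0076. No deposited column held comparisons of the authors, and 0 columns were left unmapped.

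From the intensities, outlier and control spots were left out, spots of a probe were averaged, and log2 of the signal minus the array's 75th percentile was taken. A gene was represented by its brightest probe. Differences were fitted with limma 3.58.1 (R 4.3.3, lmFit and eBayes) over all 8 arrays with 4 residual degrees of freedom. p-values were adjusted by Benjamini-Hochberg over the 20118 genes tested, and those of second probes over every probe. A call needed an adjusted p under 0.05 and 2-fold. A gene that neither array of a group held well above background has a bound against the dimmest detected signal. The fit was tested on simulated data. Gene names of the array were matched to the RefSeq table (GRCh38.p14) by symbol, accession or synonym for 14924 of the tested genes. Sites were searched in probe sequences.

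Genes named were the 10 largest called differences each way among protein-coding genes measured on all 4 arrays, the 5 largest bounds each way, the 2 largest each way without a protein-coding match, the reported targets, and called members of each list, with further list members as examples. The members and lists were chosen with earlier results of these data known. Alternatives were normexp (offset 50), quantile normalization, median centring, the authors' table, outlier spots kept, a floor, other detection filters, every probe, 4 arrays only, a trend, a replicate block, the methods' t-test and leaving out each array. RNA extraction is given as RNeasy in one source and as QIAzol with miRNeasy in another. A few genes and 1 site sequence that are counted in the totals are not reported here by name.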

Additional observations from a re-analysis of the deposited data

How the results depend on the processing

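The probe used for each of the 72 named genes that passed kept its direction under every alternative that gave it a value, while a second probe of GDNF went the other way. They stayed past the adjusted p in 72 with the authors' deposited values, with a floor and with a trend, in 64 to 69 with normexp, quantile normalization, median centring, outlier spots kept or every probe counted, and in 60 of 60 measured on all 4 arrays. Without a filter on detection 35 stayed, in a fit of the 4 arrays alone 28, with the methods' t-test 0, and without single arrays 27 to 66, the fewest without miR-210-3p replicate 1.

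The 241 genes called higher and 268 called lower became 46 and 78 with normexp, 107 and 127 with no filter, 146 and 166 with detection required on all 4 arrays, and 111 and 80 in a fit of the 4 arrays alone. The methods' t-test gave 0 and 0 after Benjamini-Hochberg adjustment, where at its unadjusted threshold with 2-fold it gave 231 and 194 (limma: 357 and 390). Those unadjusted counts became 49 and 85 with normexp, 610 and 996 with no filter and 165 and 222 with detection on all 4 arrays, and the count of higher genes became 228 with a floor. The fit of fewer arrays and the t-test have fewer degrees of freedom, and the cause of the other shifts was not tested. Leaving out 1 array gave 128 to 338 called higher and 70 to 452 called lower (unadjusted 344 to 474 and 329 to 569). The counts were 128 and 70 without miR-210-3p replicate 1, 142 and 92 without miR-210-3p replicate 2, and 338 and 452 without miR-874-3p replicate 1. Of the genes past the adjusted p at any fold, 1277 were higher with quantile normalization.

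The median of all genes moved as well, from 0.09 to 0.05 with normexp, 0.03 with quantile normalization, 0.01 with median centring, -0.08 with no filter and 0.1 with every probe, and the site medians are to be read against it. The median of genes with a miR-210-3p site, -0.12, became -0.05 with normexp, -0.2 with median centring, -0.19 with no filter and -0.06 with every probe counted, and lay between -0.16 and -0.08 without single arrays. That of genes with a miR-874-3p site, 0.15, became 0.08 with normexp, 0.11 with quantile normalization, 0.07 with median centring and 0.01 with no filter, and lay between 0.12 and 0.16 without single arrays.

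Replicate numbers are shared between groups, but same-numbered arrays did not deviate together (correlation -0.04 between the 2 groups). With the replicate number as a block 208 genes were called higher and 202 lower, 357 and 394 at the unadjusted threshold, 53 of the 72 named genes stayed past the adjusted p, and the site medians were -0.12 and 0.15. A slide block was not run because the arrays lay on 1 slide. With 2 arrays a group and nothing on separate cultures, signals near background limit the dim genes most.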
